A study of Mus musculus with 28 samples.

Results

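Promoter Capture Hi-C (PCHi-C) interactions between a promoter bait and a fragment less than 50 kb away were collected from the 4 interaction lists of a Pre-B cell to macrophage conversion. A bait is a HindIII restriction fragment that stood first in any of the lists, and a short-range pair joins a bait to a non-bait fragment on the same chromosome with under 50000 bp between the midpoints of both fragments. There were 24152 distinct short-range pairs among 231721 bait to non-bait pairs on one chromosome and 273644 pairs in all. The pairs used 6587 of 18175 baits and 19030 contacted fragments, and their median distance was 24.8 kb. The longest listed distance inside the limit was 49999.5 bp and the nearest outside it was 50003 bp.

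The cells were C10, a mouse Pre-B cell line with a transgene of rat C/EBPα joined to the hormone-binding part of the estrogen receptor, which all samples carried. They were uninduced (0h) or induced for 1h, 12h or 48h with 100 nM β-estradiol, together with 10 nM IL-3 and CSF-1. PCHi-C had 2 replicates at each time point, which the authors merged into 1 list, and RNA-seq had 3 biological replicates. C10 is 1 line, no induced cells without the transgene were analysed here, and an effect of the transgene cannot be told apart from one of estradiol or the cytokines. Replicate spread therefore describes samples of this line, and the p-values below measure only that spread.

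In a PCHi-C experiment, chromatin is crosslinked, cut and religated, and the ligation products that contain promoters are pulled out with probes. A listed pair is one that was ligated more often than expected for its distance. Nearby chromatin is ligated often by chance, so a close pair needs many more read pairs than a distant one to be listed. Fragments close to a promoter commonly hold the promoter's own proximal enhancers, introns and neighbouring genes. C/EBPα is a leucine zipper factor that drives myeloid genes, PU.1 works with it in macrophages, and EBF1 and Pax5 maintain the B lineage.

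The sequences below come from contacted fragments of the genes whose number of short-range pairs rose or fell most, and are shown because they hold C/EBP or PU.1 letters in fragments whose pair was listed only late or only early. Each is 150 bases of the plus strand of GRCm38 (mm10), outside annotated exons, with matches to TTGCNNAA (C/EBP) or GAGGAAGT (PU.1) on either strand in capitals. Of the 122 fragments of late pairs at the 10 genes with the largest rise, 69 (56.6%) held a C/EBP match and 20 (16.4%) a PU.1 match. Of the 60 fragments of early pairs at the 10 genes with the largest fall, 37 (61.7%) held a C/EBP match and 10 (16.7%) a PU.1 match. Of all possible fragments within 50 kb of a bait 57.6% and 16.2% did, and of the contacted ones 64.6% and 20.5%. The shares at these genes thus lay below those of contacted fragments. Contacted fragments were longer than possible ones, with a median of 2714 bp against 2056 bp, and the part of length was not tested. Per 10 kb they held fewer C/EBP matches, 4.14 against 4.53. Windows were placed at matches, and per gene the one with the most kinds of match, then the most matches, was kept. Genes were ranked in the same way, so the number of matches in the windows shown follows from this choice. The first windows belong to pairs listed only at 48h (Rapgef2, D1Ertd622e) or only at 12h and 48h (Nucb2, Mcmdc2). Those of Rapgef2 (chr3:79131341-79131490, in an intron of the gene), D1Ertd622e (chr1:97697424-97697573, between genes) and Nucb2 (chr7:116524563-116524712, in an intron of the gene) hold 1 match of each kind, and that of Mcmdc2 (chr1:9947710-9947859, between genes) holds 3 C/EBP matches.
Rapgef2: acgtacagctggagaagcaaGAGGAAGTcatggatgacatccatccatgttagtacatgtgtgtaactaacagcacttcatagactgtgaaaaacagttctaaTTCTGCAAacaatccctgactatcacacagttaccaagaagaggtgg
D1Ertd622e: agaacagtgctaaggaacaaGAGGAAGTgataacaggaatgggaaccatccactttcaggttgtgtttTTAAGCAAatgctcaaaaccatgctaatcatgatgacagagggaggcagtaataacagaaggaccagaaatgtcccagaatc
Nucb2: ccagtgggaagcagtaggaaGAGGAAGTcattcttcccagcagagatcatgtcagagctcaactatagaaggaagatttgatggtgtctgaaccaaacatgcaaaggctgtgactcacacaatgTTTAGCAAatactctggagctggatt
Mcmdc2: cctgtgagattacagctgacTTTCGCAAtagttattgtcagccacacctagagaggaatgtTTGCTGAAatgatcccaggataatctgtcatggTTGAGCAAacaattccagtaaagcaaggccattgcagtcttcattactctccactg
The next windows belong to pairs listed only at 0h, and each holds 2 C/EBP matches and no PU.1 match. They were taken from an intron of Nol8 at 19.6 kb on the upstream side of the Iars bait (chr13:49672142-49672291, distance of the fragment midpoint -19.6 kb), from sequence between genes near Pou2af1 (chr9:51198855-51199004) and Hnrnpa3 (chr2:75632170-75632319), and from an intron of Skp1a near Tcf7 (chr11:52240881-52241030).
Iars: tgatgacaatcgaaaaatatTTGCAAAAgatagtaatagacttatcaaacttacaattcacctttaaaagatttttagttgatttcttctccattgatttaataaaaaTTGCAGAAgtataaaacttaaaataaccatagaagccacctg
Pou2af1: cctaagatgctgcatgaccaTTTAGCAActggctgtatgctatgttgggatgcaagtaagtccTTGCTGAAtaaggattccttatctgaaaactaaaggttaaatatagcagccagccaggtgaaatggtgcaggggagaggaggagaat
Hnrnpa3: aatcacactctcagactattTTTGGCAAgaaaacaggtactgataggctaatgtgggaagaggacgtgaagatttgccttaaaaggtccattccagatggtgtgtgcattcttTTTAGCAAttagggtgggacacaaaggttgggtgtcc
Tcf7: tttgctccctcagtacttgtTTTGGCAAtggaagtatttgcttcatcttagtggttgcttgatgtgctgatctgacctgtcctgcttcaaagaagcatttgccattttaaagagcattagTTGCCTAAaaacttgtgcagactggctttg
Of all windows of 150 bases in fragments within 50 kb of a bait, 6.23% held a C/EBP match, 0.932% a PU.1 match and 0.0442% one of each. In the contacted fragments of short-range pairs these shares were 5.69%, 0.952% and 0.0485%. The windows shown were picked for their matches, so they cannot be compared with these shares.

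The number of short-range pairs changed little while their position changed more. The 0h list held 12970, the 1h list 13345, the 12h list 13459 and the 48h list 12565, a change of -3.12% between the first and the last. In the same lists pairs of 50-100 kb rose by 22.4% and those of 100-250 kb by 14.1%. As a share of bait to non-bait pairs on one chromosome, short-range pairs made up 11.3% of the 0h list (Wilson 95% interval 11.1 to 11.5) and 11.8% of the 1h list (11.6 to 12). The share was highest in the 12h list, 12.4% (12.3 to 12.6), and lowest in the 48h list, 10.2% (10 to 10.4). These intervals cover counting error only, since replicates were merged, and no test between time points could be made. The lists also differed in all bait to non-bait pairs on one chromosome, 115102, 113100, 108144 and 123146 in order of time. Read pairs over all listed interactions were 3548327, 2867339 and 3662326 at 1h, 12h and 48h. Library depth was not given with these lists, and its part in the numbers of pairs, gained pairs and lost pairs was not tested.

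Close to the bait the 4 lists differed by distance (see the plot of listed shares by distance). Below 5 kb the lists held 139, 145, 192 and 245 pairs in order of time. Between 10 and 25 kb the 48h list was the shortest, with 1846 pairs at 10-15 kb against 2213 at 0h, 1250 against 1599 at 15-20 kb and 989 against 1225 at 20-25 kb. From 40 kb on it was the longest, with 1456 pairs at 45-50 kb against 1257 at 0h. Of 449268 fragment pairs that could have formed within 50 kb, 5.38% were listed at some time point, with the highest shares at 5-10 kb (7.8%) and 10-15 kb (7.48%). The 33971 pairs of adjacent fragments were left out of the 449268, and none of them was listed. Whether the calling of interactions could have listed adjacent fragments was not tested.

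**Figure D1:**
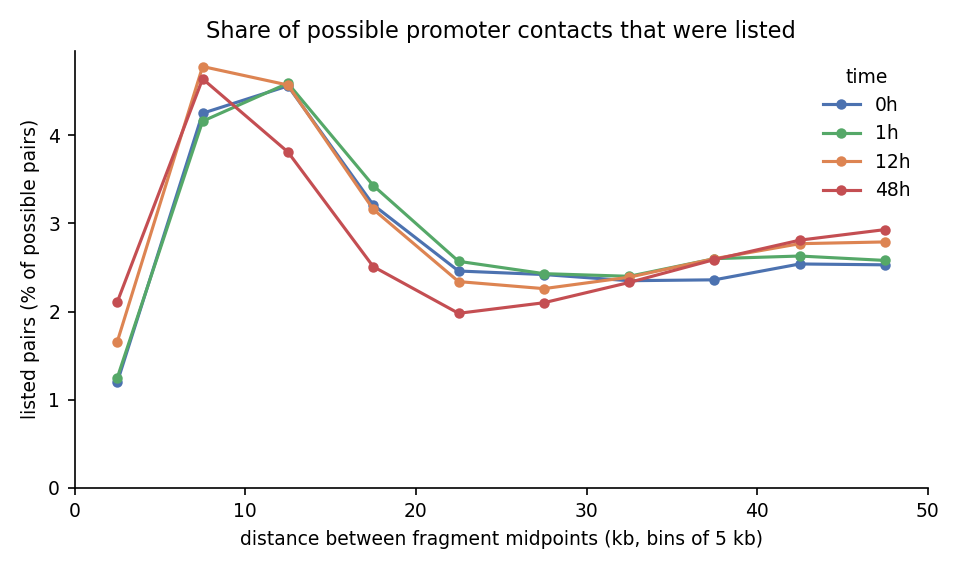
Share of possible bait to non-bait fragment pairs that were listed (y axis, percent) against the distance between fragment midpoints (x axis, bins of 5 kb), 1 line per time point from 1 merged list each. The 48h line lies lowest between 10 and 30 kb, with 3.81% at 10-15 kb against 4.56% at 0h, and highest from 40 kb on.

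Short-range pairs came in runs. Of the distinct pairs, 59.5% lay directly beside another contacted fragment of the same bait, so the pairs of 1 bait are not independent, and 24152 pairs formed 14673 runs. Among the baits with short-range pairs, 2422 had 1 distinct pair, 1967 had 2-3, 1658 had 4-9 and 540 had 10 or more. The bait of Dse, an enzyme of dermatan sulfate synthesis, had the most, 35, of which 31 were in all 4 lists. Next were the baits of Dmxl1 with 33, Ice2 with 30, and Ikzf1, a lymphoid zinc finger factor, and Edaradd with 29 each. The baits with the most pairs in all 4 lists were those of Dse, the kinase gene Lrrk2 (26 of 27 distinct pairs), Edaradd (20 of 29), the chromatin remodeller gene Chd8 (19 of 24) and Strn3 (18 of 22), whose bait also holds the start of Ap4s1. A bait could thus be crowded and steady, or crowded and shifting. The Ice2 bait had 5 pairs at 0h and 30 at 1h, and only 3 of its pairs were in all 4 lists.

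The contacted fragments differed in place from the fragments that could have been contacted. For baits whose genes lie on 1 strand, 30.5% of short-range pairs reached into the body of a bait gene, while 23.1% of the possible pairs of the same baits did. A start site of another or the same gene lay in 17.2% of contacted fragments and in 12.5% of possible ones. Contacted fragments were longer, with a median of 2707 bp against 2061 bp, and the part of length in these shares was not tested. By side, 53.3% of the pairs pointed downstream of the bait gene's start, against 50.2% of possible ones. Of pairs in all 4 lists 33.6% were in the gene body, and of those listed only at 48h 27.5%. This lower share was not particular to late pairs. It was 28.7% for pairs listed only at 0h, 26% only at 0h and 1h, and 31.1% only at 12h and 48h. Of pairs listed only at 48h 48.2% pointed downstream, and of those only at 0h 53.1%.

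The share of pairs in all 4 lists was alike under 50 kb and at 50-100 kb and fell with longer distance (see the plot of the number of lists). The share of 0h pairs still listed at 48h was lower under 50 kb than in the next longer classes. In all 4 lists were 5012 short-range pairs, 20.8% (Wilson 95% interval 20.2 to 21.3), and in 1 list only were 9845, 40.8% (40.1 to 41.4). The share in all 4 lists was 20.9% at 50-100 kb, 18.7% at 100-250 kb, 13% at 250-500 kb, 8.91% at 500 kb-1 Mb and 4.86% over 1 Mb. The shares under 50 kb and at 50-100 kb thus had overlapping intervals (20.5 to 21.4 for the latter). From list to list, 63.5% of short-range pairs at 0h were also listed at 1h, 66.3% of those at 1h at 12h, and 58.9% of those at 12h at 48h. The last step was lower than the 66.1% of pairs at 50-100 kb and the 63% at 100-250 kb. Between 0h and 48h, 7396 short-range pairs (57%) were kept, 5574 were gone and 5169 were new. The share kept was 64.2% at 50-100 kb, 60.8% at 100-250 kb and 49.6% at 250-500 kb. A pair is listed or not by a score threshold. When a fragment within 10 kb counted as the same contact, 73% of the 0h pairs were found at 48h.

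**Figure D2:**
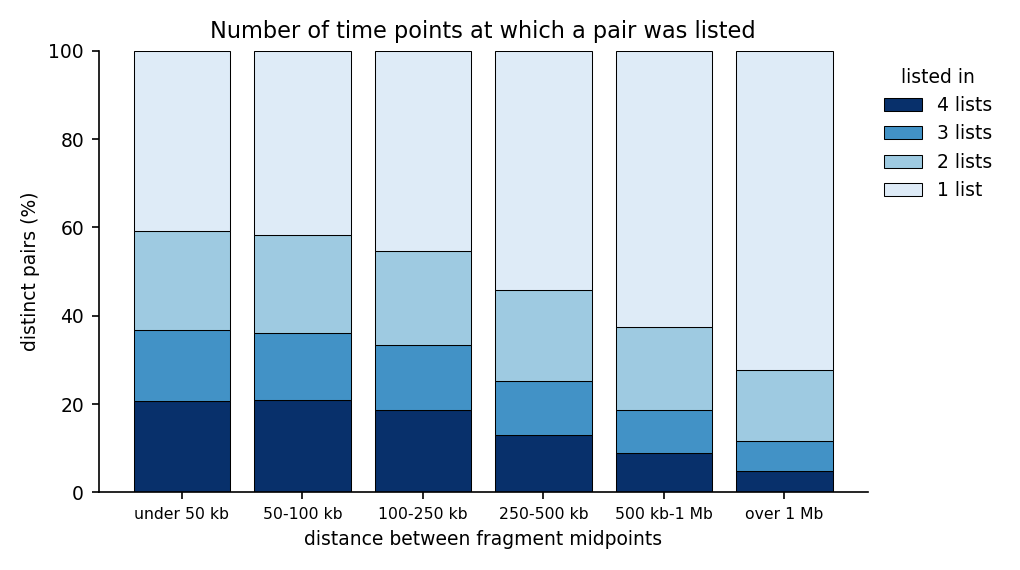
Distinct bait to non-bait pairs by the number of the 4 lists that hold them (stacked bars, percent of pairs), in 6 distance classes (x axis). The part in 4 lists is 20.8% under 50 kb and 4.86% over 1 Mb.

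Pairs in all 4 lists were those with the stronger signal. Their median CHiCAGO score at 0h was 8.27, while that of pairs listed only at 0h was 5.65, close to the threshold of 5. They had a median of 74, 58 and 79 read pairs in the lists of 1h, 12h and 48h, while pairs listed only at 1h, 12h or 48h had 48, 43 and 54. Persistent pairs were also closer to the bait, with a median of 21.2 kb against 29.4 kb for pairs listed only at 48h. Distance alone moves read pairs, which had a median of 147 at 5-10 kb and 36 at 45-50 kb in the 1h list. Short-range pairs held 29.7% of all read pairs in listed interactions at 1h, 31.7% at 12h and 32.2% at 48h. Library depth was not given with these lists, so read pairs are not compared between time points as a change.

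Letters of the 4 factors were counted in the contacted fragments per 10 kb, beside all non-bait fragments within 50 kb of a bait. The C/EBP letters TTGCNNAA occurred 4.14 times per 10 kb in contacted fragments and 4.53 times in all, the PU.1 letters GAGGAAGT 0.674 and 0.655 times, the letters CCCNNGGG for EBF1 2.54 and 2.2 times, and the CTCF core letters CNAGNNGGC 4.14 and 3.81 times, on both strands and with overlapping matches counted. Fragments of pairs listed only at 12h and 48h had 4.49 C/EBP matches and 2.43 EBF1 matches per 10 kb, and those of pairs listed only at 0h and 1h had 3.86 and 2.72. GC content moved with these densities, from 44.2% in the late to 45.7% in the early fragments, and its part was not tested. PU.1 densities were 0.646 late and 0.711 early. The PU.1 order was reversed for pairs listed at a single time point, with 0.697 only at 48h and 0.616 only at 0h. C/EBP densities of these fragments were closer together, 4.42 only at 48h and 4.24 only at 0h, and EBF1 densities were 2.08 and 2.37.

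Expression was measured in 12 libraries as TPM, a gene's share of all transcripts corrected for its length, divided here by a size factor per library ("scaled TPM"), because 2 rows of the table, CT010467.1 and AY036118, took from 70.3% to 82.9% of a library's TPM. A gene was assigned to each bait with 1 of its transcription start sites. Of 23193 genes with a bait, 9164 (39.5%) had a short-range pair, 6610 of them protein-coding, and 2254 baits with short-range pairs held the starts of 2 or more genes. Tests against 0h used limma on 16415 genes whose TPM averaged 0.1 or more. A call needed both an adjusted p under 0.05 (Benjamini-Hochberg) and a log2 fold change beyond 1. Of genes with a short-range pair 64.3% passed the TPM filter, and of genes with a bait and none 42.2%. All fold changes are on the log2(scaled TPM + 0.1) scale, which understates changes of low genes. In bulk RNA, fewer cells of a type and less RNA per cell cannot be told apart.

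The Pre-B and most macrophage marker genes followed the labels. The libraries numbered 3 deviated from their group means together at all time points (r from 0.13 to 0.419). The 12 Pre-B markers summed to between 347 and 374 scaled TPM at 0h and between 45.2 and 53.7 at 48h, and all 12 were called lower at 48h. The 12 macrophage markers summed to between 13.5 and 16.3 at 0h and between 1562 and 1863 at 48h, and 11 of the 11 tested were called higher. Adgre1, the macrophage marker too low to be tested, was at 0 at 0h and 1h and at most 0.396 at 48h. Mmp12 (559 to 823) and Ctsc (486 to 559) were the highest of these markers at 48h. Markers of T, NK, erythroid and mast cells and of fibroblasts summed to at most 0.318 in any library. The 7 neutrophil markers summed to at most 0.602 at 0h, between 9.28 and 12.9 at 12h and between 2.53 and 6.31 at 48h, with the 3 tested called higher at 48h, Mpo and S100a9 at 0 throughout and Camp highest, at 6.36 to 8.21 at 12h. Their part in the myeloid results was not tested.

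Genes with more short-range pairs were more often expressed, at every time point and in every library (see the plot of expression by number of pairs). At 0h, 11.2% ± 0.101 (SD, n = 3) of the 12929 genes with a listed bait and no short-range pair were over 5 scaled TPM, as were 17.2% ± 0.429 (SD, n = 3) with 1 pair, 21% ± 0.369 (SD, n = 3) with 2-3 and 27.2% ± 0.293 (SD, n = 3) with 4 or more. At 48h these shares were 10.5% ± 0.414, 14.4% ± 0.427, 22.5% ± 0.504 and 27.3% ± 0.215 (SD, n = 3). The libraries of neighbouring classes did not overlap at any time point. The share listed at 0 TPM ran the other way, from 48.7% ± 3.09 (SD, n = 3) without a pair to 26.4% ± 2.62 (SD, n = 3) with 4 or more at 0h. Even so, most genes with 4 or more short-range pairs were not over 5.

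Genes with many short-range pairs also had more pairs over 50 kb, with means of 5.68 longer pairs in the lowest and 18.5 in the highest class at 0h. Within genes of 0-4 longer pairs at 0h, 17.9% ± 0.581 (SD, n = 3) of the 2506 with a short-range pair and 10% ± 0.0718 (SD, n = 3) of the 8396 without were over 5. Within genes of 20 or more longer pairs these shares were 24.8% ± 0.197 and 14.1% ± 0.308 (SD, n = 3). At 48h they were 16.2% ± 0.747 and 9.78% ± 0.588, and 26.1% ± 0.683 and 13.9% ± 0.461 (SD, n = 3). The difference between genes with and without a short-range pair was thus present at both low and high numbers of longer pairs.

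**Figure D3:**
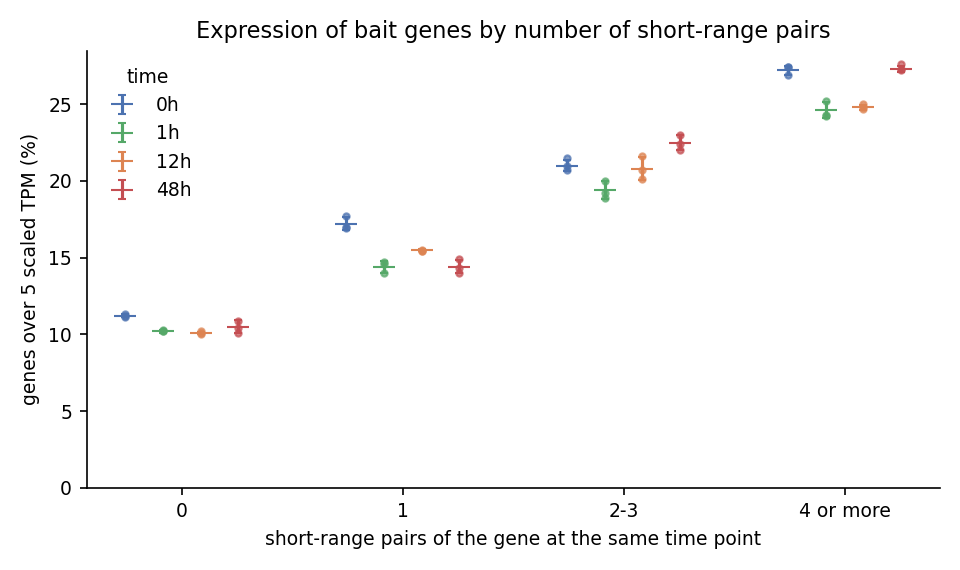
Share of genes over 5 scaled TPM (y axis, percent) by the number of short-range pairs at the same time point (x axis). Points are the 3 RNA libraries of each time point, and bars are their mean and SD. The share rises from 11.2% without a pair to 27.2% with 4 or more at 0h, and from 10.5% to 27.3% at 48h.

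Genes that gained short-range pairs were more often called higher than other genes. At 48h, genes that lost at least 2 pairs stood close to genes without a net change, and those that lost at least 4 stood further from them. Over all genes tested, 19.6% were called higher and 17.6% lower at 48h. Of 775 genes that gained at least 2 short-range pairs from 0h to 48h, 283 (36.5%) were called higher and 78 (10.1%) lower. Of 1203 genes that lost at least 2, 158 (13.1%) were called higher and 316 (26.3%) lower. Beside them, of 1030 genes with no net change 14.2% were higher and 23.9% lower, and of 6838 genes with a bait and no short-range pair at either time 15.6% and 22.4%. The median log2 fold change was 0.63 for genes that gained, -0.18 for genes that lost, -0.13 for both of these comparison groups and 0.07 for all genes tested. Among the 304 genes that gained at least 4 pairs 44.7% were called higher, and among the 389 that lost at least 4 31.9% were called lower. With TPM as deposited, which moved the median of all genes to -0.18, gained genes split into 217 higher and 110 lower with a median of 0.25, and lost genes into 108 and 414 with a median of -0.55.

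The same order was present at 12h. Over all genes 12.0% were called higher and 9.42% lower, and of 907 genes that gained at least 2 pairs 214 (23.6%) were higher and 58 (6.39%) lower. Of 971 that lost at least 2 pairs, 75 (7.72%) were higher and 180 (18.5%) lower, beside 9.6% and 13.4% of genes with no net change. The median log2 fold change was -0.22 for lost genes and -0.07 for genes with no net change. With TPM as deposited the 12h median over all genes was 0.34, and the splits were 274 higher and 35 lower of gained and 121 higher and 126 lower of lost genes. At 1h, 4.09% of all genes were called higher and 2.82% lower. Of 879 gained genes 50 (5.69%) were higher and 26 (2.96%) lower, and of 801 lost genes 23 (2.87%) were higher and 58 (7.24%) lower. Beside them, of 1160 genes with no net change 2.59% were higher and 5.52% lower, so lost genes stood closer to these than to all genes. The 1h split depended on scaling: with TPM as deposited the median of all genes was 0.59, gained genes split into 179 higher and 11 lower, and lost genes into 108 and 23.

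Counted over baits rather than genes, baits with a gene called higher at 48h and none called lower had 2299, 2435, 2901 and 3020 short-range pairs in the 4 lists, a rise of 31.4% over the conversion. Baits with a gene called lower and none called higher had 2744, 2779, 2323 and 1815, a change of -33.9%. Baits with tested but uncalled genes had 5570, 5547, 5381 and 4904, a change of -12%. Their pairs of 50 kb and over changed by 25.1%, -12% and 1.89% in the same order. A rise was not particular to baits of higher genes: baits without a tested gene had 2050, 2276, 2528 and 2505 short-range pairs, a rise of 22.2%, and 23.8% more longer pairs. In all 4 lists were 21.7%, 22.2% and 22.1% of the short-range pairs of baits with higher, lower and uncalled genes, so the share of steady pairs was nearly the same in these 3 while late and early pairs were not. Baits of higher genes had 1651 pairs listed only at 12h or 48h and 833 listed only at 0h or 1h, and baits of lower genes had 608 and 1463.

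**Figure D4:**
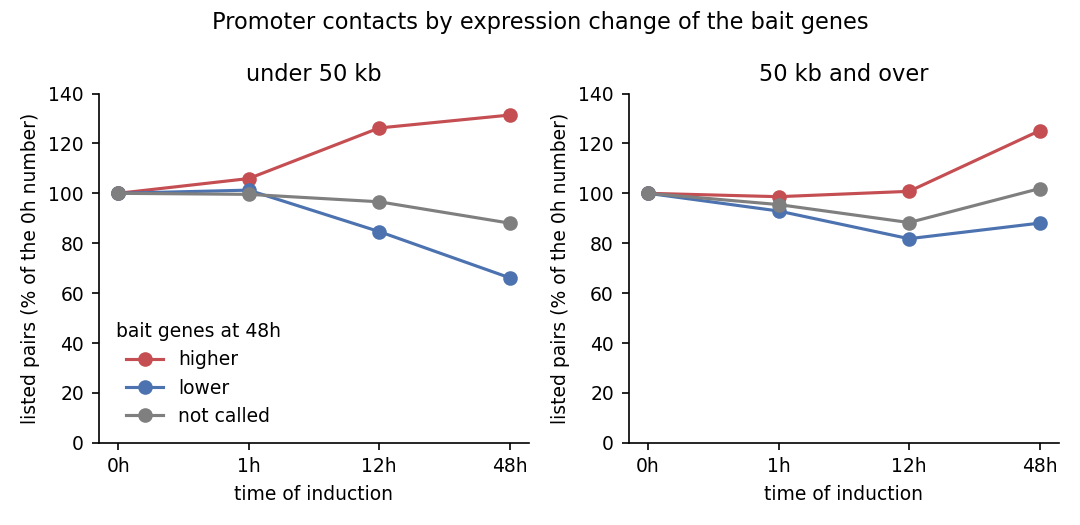
Listed pairs at each time point as a percent of the 0h number (y axis), under 50 kb (left) and at 50 kb and over (right), for baits with genes called higher at 48h, called lower, or tested and not called. Under 50 kb the 48h numbers are 3020, 1815 and 4904, changes of 31.4%, -33.9% and -12% against 0h.

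Gains and losses were not limited to short range. Of the 775 genes that gained at least 2 short-range pairs at 48h, 533 (68.8%) also had more longer pairs than at 0h, with a median change of 3. Of the 1203 that lost at least 2, 867 (72.1%) had fewer, with a median change of -4. Among tested genes with a bait and no short-range pair at either time, 36.2% had more and 35.8% fewer.

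Among genes called higher at 48h with no overlap between libraries, 10 were taken for the largest rise in short-range pairs (see the plot of pairs at 6 genes). Mmp13, a collagenase of activated macrophages (ENSMUSG00000050578, chr9, start 7272514), had no short-range pair before induction and then 6, 11 and 18 in the lists of 1h, 12h and 48h. In scaled TPM its libraries stood at 0, 0 and 0.0244 at 0h, 0.0395, 0.094 and 0.0155 at 1h, 3.58, 3.88 and 2.86 at 12h and 164, 158 and 123 at 48h. The gene was thus near 0 at 1h, when 6 pairs were already listed, and its 1h change was not called (log2 fold change 0.44 ± 0.23 SE, limma adjusted p = 0.266). At 48h 17 of its pairs lay upstream, the nearest with a midpoint at -4.4 kb and 374 read pairs. The 48h change was 10.42 ± 0.23 on the log2 scale (limma adjusted p = 1.68e-10).

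Nucb2, a calcium-binding secretory protein (chr7, start 116504369), had 0, 8, 12 and 13 short-range pairs at the 4 time points. Scaled TPM of its RNA were 0.309, 0.58 and 0.905 at 0h, 0.619, 0.524 and 0.89 at 1h, 9.05, 7.3 and 6.74 at 12h and 4.38, 6.08 and 4 at 48h. The 1h libraries overlapped those of 0h, and the 12h and 48h libraries lay above them (log2 fold changes 3.56 and 2.89, SE 0.32 each, limma adjusted p = 1.15e-05 and 2.05e-05). Cxcl10, a chemokine that attracts T cells (chr5, start 92346638), had 0, 0, 6 and 13 pairs. It was listed at 0 TPM in all 9 libraries of 0h, 1h and 12h and at 0.769, 1.36 and 1.22 scaled TPM at 48h. Its 6 pairs of 12h were thus listed while its RNA was listed at 0.

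Other genes of this kind, like Nucb2, had some RNA in every 0h library. Rapgef2, an exchange factor for Rap GTPases, went from 0 to 18 pairs and from a mean of 0.457 to 2.1 scaled TPM (log2 fold change 2.02 ± 0.25 SE, limma adjusted p = 5.24e-05). Ptprj, a receptor phosphatase, went from 6 to 19 pairs and rose by 2.34 ± 0.16 (SE) on the log2 scale. Sdcbp, the scaffold protein syntenin, had 9, 7, 10 and 23 pairs and 25.6, 24.3 and 29.8 scaled TPM at 48h, above the 8.78 to 10.4 of 0h. Klhl2 went from 0 to 15 pairs, Mcmdc2 from 7 to 24, D1Ertd622e from 1 to 14 and Zfc3h1 from 0 to 17, with log2 fold changes of 1.28, 1.57, 1.57 and 1.91. The call of Klhl2 was lost with TPM as deposited (0.89) and with a pseudocount of 1 (0.87).

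**Figure D5:**
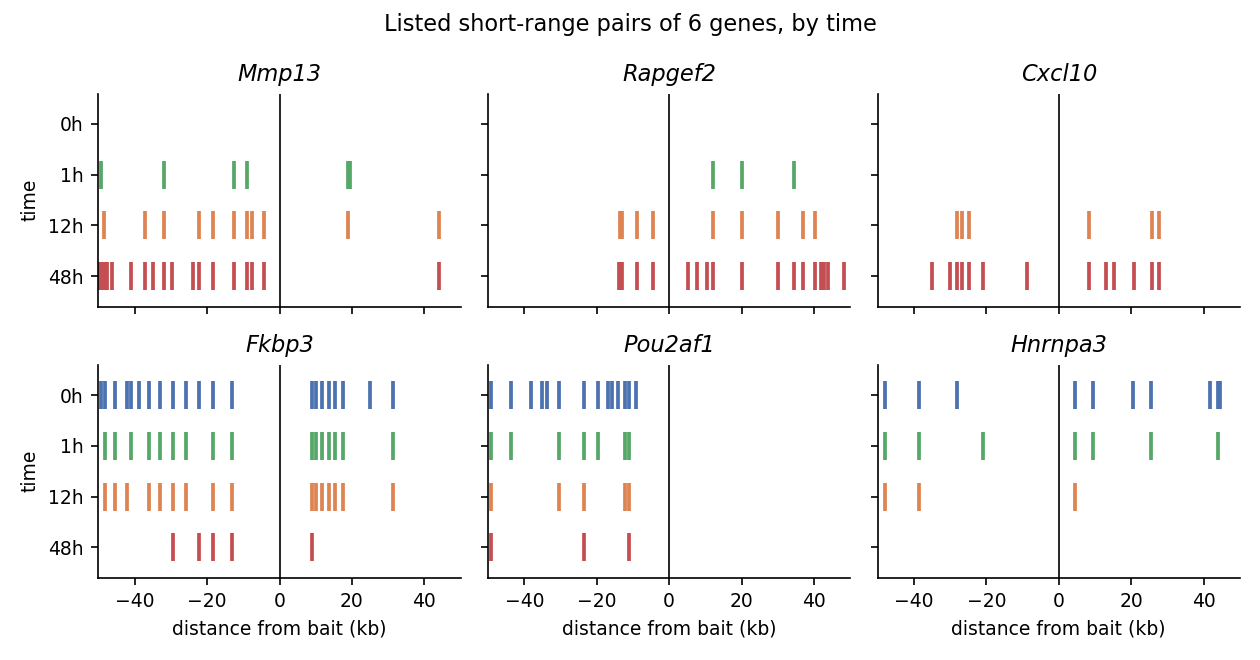
Short-range pairs of 6 genes by time point (rows) and distance of the contacted fragment's midpoint from the bait (x axis, kb, positive in the direction of transcription). Each tick is 1 listed pair and the vertical line is the bait. Mmp13, Rapgef2 and Cxcl10 have no pair at 0h and 18, 18 and 13 at 48h, and Fkbp3, Pou2af1 and Hnrnpa3 go from 21, 14 and 10 pairs to 5, 3 and 0.

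Likewise, 10 genes were taken for the largest fall in pairs among those called lower at 48h. Fkbp3, a nuclear prolyl isomerase (chr12, start 65062424), had 21, 16, 16 and 5 pairs. Its scaled TPM were 18.6, 19.4 and 17.7 at 0h, 10.5, 13 and 11.9 at 1h, 8.71, 6.59 and 6.45 at 12h and 2.32, 3.18 and 1.31 at 48h. Every later library was below those of 0h, and the 48h change was -3.06 ± 0.26 (SE, limma adjusted p = 2.39e-06). Its bait also holds starts of Fancm and Gm47870. Pou2af1, a coactivator of octamer factors in B cells (chr9, start 51213708), had 14, 7, 5 and 3 pairs, all upstream of the bait. Its scaled TPM were 30.9, 33.3 and 31.5 at 0h, 11.2, 12.7 and 12.4 at 1h, 7.12, 7.18 and 6.92 at 12h and 4.16, 3.78 and 3.03 at 48h, with no overlap between 0h and any later time. It was called lower at all 3 (log2 fold changes -1.39, -2.16 and -3.1, SE 0.13 each), the 1h call being lost with TPM as deposited (-0.73), and its pairs at -11.1, -23.5 and -49.2 kb stayed in all 4 lists.

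Hnrnpa3, an RNA-binding protein of spliceosomal complexes, had 10, 7, 3 and 0 pairs and 89, 76.5 and 62.1 scaled TPM at 0h against 40.3, 26 and 24 at 48h (log2 fold change -1.35 ± 0.23 SE, limma adjusted p = 0.000617). Its RNA thus remained in all 3 libraries with no short-range pair left. Iars, the isoleucyl-tRNA synthetase, had 14, 10, 10 and 1 pairs and fell by 2.81 on the log2 scale, and Nop2, a ribosomal RNA methyltransferase that shares its bait with Chd4, had 12, 10, 6 and 0 and fell by the same 2.81. Hdac10, a deacetylase gene whose bait also holds the start of Tubgcp6, had 13, 21, 16 and 0 pairs. Its RNA was above 0h at 1h without a call (0.68 ± 0.24 SE) and was called lower at 48h (-1.73 ± 0.24 SE, limma adjusted p = 0.000135), a call lost with a pseudocount of 1 (-0.98). Hnrnpf, Tcf7 (the T cell factor TCF-1), Hist1h2ae and Ddit4, an inhibitor of mTORC1, had 19, 14, 12 and 11 pairs at 0h and 7, 4, 3 and 2 at 48h. Hist1h2ae is 1 of many near-identical histone genes, so its reads may be split among copies. The call of Tcf7, which was at most 1.43 scaled TPM in any library, was lost with a pseudocount of 1 (-0.46), and that of Hnrnpf without 48h replicate 3 (-0.98). Ddit4 had 1.75, 2.25 and 6.92 scaled TPM at 48h and 7, 7.12 and 8.32 at 0h, and its call was lost without 48h replicate 1 (-0.87), without 48h replicate 2 (-1.06) and without 0h replicate 3 (-1.2).

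Pairs and RNA did not always move together. Among genes called lower, Smc4, a condensin subunit, went from 17 to 23 pairs while its RNA fell by 1.53 on the log2 scale. The Smc4 bait also holds the start of Ift80. Ipo4, an importin whose bait also holds the start of Tm9sf1, went from 6 to 17 while its RNA fell by 3.24. Zfc3h1 and Thap2 share a bait that had 0, 2, 9 and 17 pairs, and the former was called higher at 48h (1.91 ± 0.22 SE) and the latter lower (-1.4 ± 0.36 SE, and -0.59 with no call at a pseudocount of 1). Among genes called higher, Sema4d, a semaphorin of lymphocytes and macrophages, had 20, 6, 5 and 2 pairs. Its scaled TPM were 4.96, 7.19 and 6.36 at 0h, 4.1, 3.68 and 2.96 at 1h, 4.49, 5.26 and 5.43 at 12h and 16.7, 16.8 and 19 at 48h, so RNA was below 0h without a call when pairs first fell, and highest when 2 pairs were listed. Ero1l, an oxidase of protein folding in the endoplasmic reticulum, had 14, 20, 9 and 0 pairs and was called higher at 1h, 12h and 48h (1.56, 2.16 and 1.41, SE 0.16 each), the 48h call being lost with TPM as deposited. Carnmt1, with 8, 12, 13 and 16 pairs, was called lower at 48h (-2.35 ± 0.34 SE). Rassf2, with 18, 16, 12 and 8, and Irf2bp2, with 13, 9, 6 and 3, were called higher at 48h (1.04 ± 0.17 and 1.13 ± 0.15 SE), both lost with TPM as deposited (0.63 and 0.72). At a pseudocount of 1 neither was called (0.93 and 0.97). The Rassf2 call was also lost without 0h replicate 2 (0.86) and without 48h replicate 3 (0.94).

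By lists of genes, pre-B cell genes had fewer short-range pairs at 48h than at 0h (52 to 33) and macrophage genes more (42 to 74), while the housekeeping list also had fewer (38 to 24). Of 18 pre-B cell genes (surface, pre-B receptor and recombination genes), 11 had short-range pairs, numbering 52, 39, 33 and 33 at the 4 time points. Of the 18, 11 were called lower at 1h, 17 at 12h and 15 at 48h, where 17.6% of all genes were, and the median log2 fold change at 48h was -2.92 against 0.07 over all genes. Vpreb2, part of the surrogate light chain, had 10, 8, 7 and 4 pairs. Its scaled TPM were 2.36, 3.15 and 4.49 at 0h and 0 in all 3 libraries of 48h, where 4 upstream pairs were still listed. Vpreb1 is a near-identical gene, so reads of the pair may be split. Rag2, a subunit of the V(D)J recombinase, had 3 pairs at 0h and none later, with 3.22, 1.83 and 1.52 scaled TPM at 0h and at most 0.125 in any later library.

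Blnk, an adaptor of pre-B receptor signalling, had 6, 2, 2 and 2 pairs and 6.04, 7.78 and 8.4 scaled TPM at 0h, 2.65, 1.58 and 1.38 at 12h and 5.02, 6.02 and 4.85 at 48h. Its 48h libraries were below 0h without a call (-0.47 ± 0.23 SE, limma adjusted p = 0.12), and the number of pairs did not return with the RNA. Cd38 was the exception of the list, with 12, 12, 12 and 17 pairs and a rise of 4.37 ± 0.27 (SE) on the log2 scale at 48h. This surface enzyme is also made by macrophages. Cd79a and Cd79b, the signalling chains of the B cell receptor, had at most 4 pairs at any time.

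Of 16 B lineage transcription factors 8 had short-range pairs, 53, 45, 29 and 27 in all, and all 8 were called lower at 48h, beside 17.6% of all genes. Of all 16, with or without such pairs, 13 were called lower at 48h and 1 higher. Lef1 had 8, 3, 1 and 1 pairs and 28.2, 35.4 and 32.2 scaled TPM at 0h against 4.04, 3.88 and 1.57 at 48h. Myb, a regulator of progenitor growth, had 6, 3, 2 and 1 and fell by 4.82 on the log2 scale. Ikzf1 kept 19, 29, 19 and 22 pairs although its RNA was called lower at 48h (-1.14 ± 0.12 SE, limma adjusted p = 1.43e-05). Pax5 had 2, 1, 0 and 0 short-range pairs and 32, 11, 11 and 22 longer ones. Few of the contacts of Pax5 were thus within 50 kb.

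Of 29 macrophage genes 19 had short-range pairs, 42, 43, 71 and 74 in all. At 48h 11 of the 19 had more than at 0h, 6 had fewer and 2 the same number. Of the 27 tested 26 were called higher at 48h and 19 at 12h, beside 19.6% and 12.0% of all genes, and the median log2 fold change at 48h was 6.13. Ctsc, the lysosomal protease cathepsin C, had 4, 4, 11 and 10 pairs. Its scaled TPM were 8.43, 8.89 and 11.7 at 0h, 22.7, 24 and 22.3 at 1h, 220, 225 and 195 at 12h and 539, 559 and 486 at 48h, so each time point lay above the one before. Clec7a, the β-glucan receptor Dectin-1, had 9, 9, 13 and 15 pairs and rose by 5.89 ± 0.26 (SE) on the log2 scale at 48h. Cd14, the lipopolysaccharide co-receptor, had 0, 2, 8 and 10 pairs. It was listed at 0 TPM in all 0h libraries, at 1.47, 1.09 and 1.4 scaled TPM at 1h and at 59.2, 60.4 and 84.1 at 48h. Lgmn, a lysosomal protease, was 1 of the 6 with fewer pairs, with 9, 5, 6 and 3 pairs while its RNA was called higher at 48h (1.68 ± 0.13 SE, limma adjusted p = 9.62e-07). Tyrobp (5 to 2 pairs) and Tlr4 (3 to 0) were others called higher with fewer pairs. Lgals3 went from 0 to 5 pairs without a call, at a mean of 0.102 scaled TPM at 48h.

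Some macrophage genes had at most 2 short-range pairs at any time. Csf1r had 0, 1, 2 and 2, Itgam 0, 0, 1 and 2, Fcgr1 1, 2, 1 and 2, and Msr1 had its only pair at 48h. Mmp8, a neutrophil and macrophage collagenase, had 0, 5, 8 and 6. It was listed at 0 TPM in all 0h libraries and at 0.204, 0.181 and 0.217 scaled TPM at 1h. Cebpb, a C/EBP family factor that shares its bait with Tmem189, had 1, 1, 0 and 0 pairs, while its RNA was called higher at 48h (2.85 ± 0.27 SE, limma adjusted p = 5.56e-06). Of the 25 chemokine and cytokine genes 17 had short-range pairs, 32, 36, 59 and 64 in all, and 12 of the 15 tested were called higher at 48h, beside 19.6% of all genes. Ccl6 had 8, 12, 12 and 10 pairs, 6 of them in all 4 lists, at 0.11, 0 and 0.183 scaled TPM at 0h and 71.7, 79.6 and 78.8 at 48h. Its contacts were thus largely listed before its RNA rose. Il1rn, the interleukin 1 receptor antagonist, had 2, 3, 7 and 8 pairs and 222, 227 and 184 scaled TPM at 48h. Csf1 had 9, 4, 3 and 6 pairs and rose by 5.37 ± 0.2 (SE).

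Myeloid transcription factors did not gain pairs as a list. Of 24, 11 had short-range pairs, 46, 39, 39 and 39 in all, and 2 had more at 48h than at 0h and 6 fewer. Of the 20 tested 12 were called higher at 48h and 1 lower, beside 19.6% and 17.6% of all genes. Among the 11 with short-range pairs 5 were called higher and 1 lower, with a median log2 fold change of 0.56 against 1.7 for the tested list. Fli1, an ETS factor, had 5, 5, 10 and 9 pairs with no call at any time. Irf8, an interferon regulatory factor of B and myeloid cells, had 13, 10, 8 and 8 pairs, and its scaled TPM were 19.4, 19.7 and 23.7 at 0h, 6.59, 4.18 and 6.22 at 1h and 18.8, 18.4 and 31.7 at 48h. Klf2 and Bhlhe40 were the other examples, with 17 and 4 pairs at 0h and 17 and 2 at 48h. Cell cycle and chromatin genes had 34, 40, 32 and 28 pairs over 17 of 28 members, and 18 of the 26 tested were called lower at 48h, beside 17.6% of all genes. Mcm5, a subunit of the replicative helicase, had 4, 11, 2 and 3 and fell by 5.99 on the log2 scale, while Cdkn1a, the inhibitor p21, had 7, 6, 8 and 6 and rose by 4.32. Ccne1 had 2, 5, 6 and 2, and Cdk6 7, 6, 5 and 3.

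The 18 housekeeping genes, listed for comparison, had 38, 42, 29 and 24 short-range pairs over 11 members, with 8 members at fewer and 1 at more pairs at 48h than at 0h. Of the 18, 3 were called higher and 7 lower at 48h, beside 19.6% and 17.6% of all genes, with a median log2 fold change of -0.63. Gapdh had 4, 8, 6 and 3 pairs and was not called at any time (0.03 ± 0.15 SE at 48h, limma adjusted p = 0.889). The histone variant genes H3f3a and H3f3b had 6, 7, 9 and 8 pairs and 0, 0, 0 and 1. H3f3b was called higher at 48h (1.15 ± 0.11 SE, limma adjusted p = 5.03e-06, a call lost with TPM as deposited, 0.74), and H3f3a was above 0h in all 3 libraries without passing the fold change (0.84 ± 0.11 SE).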

How the data were processed

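RNA-seq of 12 libraries (4 time points, 3 biological replicates) and PCHi-C lists of the 4 time points were analysed, and Hi-C was not analysed here. For RNA-seq the authors merged technical replicates, trimmed reads with Trim Galore 0.6.2, mapped them to mm10 with HISAT2 2.1.0, and deposited TPM per gene, which hold no depth. For PCHi-C the authors mapped reads to mm10, merged 2 replicates and called interactions with CHiCAGO at a score of at least 5. The deposited 0h list gives that score. Values in the other deposited lists are whole from 2 up and fall with distance, and were read as counts of read pairs, although no unit is named. Score and counts were not compared with each other.

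Baits, members and distances followed the definitions given above. All 127024 listed fragments matched HindIII fragments of GRCm38, read from the RefSeq genome. Genes and start sites were from GENCODE M21. TPM were divided by a median-of-ratios size factor per library (0.611 to 1.52), the kind of factor the authors' DESeq2 test uses on counts, here computed on TPM, and log2(scaled TPM + 0.1) was fitted with limma 3.58.1 (lmFit, contrasts against 0h, eBayes with trend; R 4.3.3) on 16415 genes with 12 libraries in 1 model. Genes gained or lost pairs when their number differed by at least 2 from 0h. Other steps used Python 3.11.15, numpy 2.4.6 and pandas 2.3.3. The scripts were tested on simulated data.

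Named genes were protein-coding: the 10 with the largest rise in pairs from 0h to 48h among genes called higher without overlap of libraries, the 10 with the largest fall among genes called lower, 4 of each opposite kind, the 5 baits with the most pairs and the 5 with the most in all 4 lists, of each gene list the up to 4 members with the most pairs, and genes that the study names. Of genes that share a bait, the more abundant was taken. Thap2 was kept beside Zfc3h1 since they fall under different parts of the rule. Members and lists were chosen with earlier results of these data known. Unused columns of samples numbered 0.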

Additional observations from a re-analysis of the deposited data

How the results depend on the processing

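Measuring between nearest fragment ends gave shares of 12.6%, 13.2%, 14% and 11.7% at 0h, 1h, 12h and 48h, and including bait to bait pairs 11.6%, 12.1%, 13.1% and 10.8%. A limit of 25 kb gave 6899, 7048, 7083 and 6208 pairs (5.99%, 6.23%, 6.55% and 5.04%), of which 23.1% were in all 4 lists and 58.4% of those at 0h were kept at 48h. With fragments within 10 kb counted as the same, 43.7% were in all 4 lists and 73% were kept. A score of at least 10 left 1917 pairs at 0h, of which 88.7% were listed at 48h. The time order of the shares, highest at 12h and lowest at 48h, was the same at 25 kb and between nearest ends.

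Calls are given as gained higher, gained lower, lost higher and lost lower. Requiring 3 pairs gave 26, 15, 8 and 38 at 1h, 136, 26, 39 and 102 at 12h, and 187, 47, 86 and 189 at 48h. A log2 fold change beyond 2 gave 21, 4, 3 and 11 at 1h, 94, 10, 28 and 69 at 12h, and 154, 25, 63 and 152 at 48h. In both, fewer genes can pass by construction. TPM as deposited moved the 1h counts to 179, 11, 108 and 23, so that lost genes had more higher than lower calls (main 23 and 58), with the lost median at 0.46 against -0.14 (12h 0.08 against -0.22) and that of all genes at 0.59 against 0.02 (12h 0.34 against 0.07), and the 12h gained lower and lost higher to 35 and 121. A pseudocount of 1 moved 1h gained higher, lost higher and lost lower to 32, 11 and 36, 12h gained higher, gained lower and lost higher to 136, 34 and 45, and 48h gained lower to 46. For these the cause was not tested. Leaving out each library in turn kept every one of these counts within 1.5 times.

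With the replicate block the 48h counts were 285, 80, 164 and 317. All 211 fold changes of named genes kept their call or lack of one. Same-numbered libraries of different times correlated from -0.04 to 0.419, over 0.1 in 11 of 18 pairs. All 6 pairs of replicate 3 were over 0.1, while replicate 1 at 0h correlated best with replicate 2 at 1h and 48h (0.176 each), so the numbers were not taken to pair all samples. Of the 211, called or not, 19 lost a call and 15 gained one with TPM as deposited, and 21 lost a call with a pseudocount of 1. Over the fits that left out 1 library, 41 fold changes lost a call, 12 gained one and 1213 stayed the same. The merged lists give no replicate error, TPM give no depth, and differences between lists of a few pairs at 1 gene have no error estimate.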
